A study of Mus musculus with 5 samples.

Results

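Killer lectin receptor and granzyme genes were examined in group 2 innate lymphoid cells (ILC2s) of the mouse lung. The set holds the genes of the Klra to Klrk families and the granzymes, chosen by gene symbol, together with Prf1, Nkg7, Ncr1 and Cd160. Klrg1, an ILC2 marker, was left out. This gave 35 genes of the 22180 with their own symbol on the array, each measured by 1 probe set. A further 6 probe sets that carry several symbols, including a gene of these families, were left unnamed. The samples were ILC2s from the lungs of naive adult male mice: 3 arrays of wild-type animals and 2 arrays of animals with a knockout of IL-33, an alarmin that activates ILC2s. Total RNA was labelled with biotin and hybridised, and signals were deposited on a log2 scale, 1 per probe set. The sources used here do not give the strain, the exact age, the sorting gates, the knockout allele or any pooling of animals. The labels call the arrays biological replicates. The comparison asks whether these genes differ in lung ILC2s of mice without IL-33, and each knockout array is given apart.

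Cytotoxic lymphocytes such as natural killer (NK) cells and CD8 T cells kill by releasing granules. Perforin opens the membrane of the target cell and granzymes, a family of serine proteases, enter and cleave proteins there. Killer lectin receptors are C-type lectin-like surface proteins, many of which read MHC class I or related molecules on other cells and set NK cell activity up or down. ILC2s are best known for type 2 cytokines rather than for killing.

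Medians of all probe sets lay between 4.29 and 4.33 log2 units on the 5 arrays, whose small number limits all precision. Arrays correlated over probe sets, which are no replicates, at a Pearson's r of 0.929 to 0.933 within wild type and 0.893 within knockout. Il33 itself read 3.32 to 3.39 in wild type and 3.79 and 3.95 in knockout, a dim signal that was not tested, and the position of its probes in the deleted part is unknown, so it does not check the labels. Knockout replicate 2 stood apart in Xist, which females express from the inactive X chromosome. Xist read 7.91 there and 2.35 to 3.10 on the other 4 arrays, all labelled male. The Y-linked gene Kdm5d read 4.79 on that array against 5.57 to 5.63 on the others, and Eif2s3y 6.14 against 6.82 to 7.62. Uty, also Y-linked, was not lower there, at 7.17 against 5.83 to 6.96. Differences that rest mainly on knockout replicate 2 are therefore given with and without it, or as the difference of each knockout array from the wild-type mean. Knockout replicate 1 stood apart in the lung epithelium markers Bpifa1, Scgb1a1 and Scgb3a2, whose values are given below. The ILC2 label was checked against 14 identity markers. Their means over the 5 arrays all lay above the 95th percentile of the reference genes defined next. By array, Il5 lay below it on wild type replicates 1 and 2 (5.59 on each, against 5.74 and 6.12). On knockout replicate 1 it did so too, at 4.43 against 4.82. Il1rl1 and Areg were also listed but were not found among the genes with their own symbol. Gata3, the ILC2 lineage factor, read 8.16 to 8.50 in wild type and 8.21 and 7.89 in knockout. Klrg1, which the set leaves out, read 9.25 to 9.55 in wild type and 9.25 and 8.51 in knockout, with limma's adjusted p = 0.623.

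Most of the 35 genes gave signals in the range of genes that lymphocytes do not use. As such a reference served 1394 olfactory and vomeronasal receptor genes, whose mean signals had a median of 2.89 and a 95th percentile of 5.23 log2 units. Probes differ in brightness, so a level is read here only against this range and does not rank the genes by transcript number. Nkg7 was the 1 gene of the 35 with a mean over the 5 arrays above that 95th percentile, and 10 genes lay below the reference median. Much of the array shares this range, since Prf1, with a mean of 5.09 inside it, stood at percentile 64.0 of all genes. By array the reference 95th percentile ran from 4.82 on knockout replicate 1 to 6.12 on wild type replicate 2, and 1 to 3 of the 35 genes lay above it. Median levels were 3.30 for the 35 genes and 4.48 for all genes, both in log2 units. A limit on dim genes, the lowest 25% by mean (3.56 log2 units), left 13 of the 35 genes in the test and 22 out. Just inside the limit were Klrk1 and Klrd1, with means of 3.71 and 3.80, and just outside were Cd160 and Klrh1, with means of 3.53 and 3.47. In bulk samples of this kind, fewer cells with a transcript and less of it per cell cannot be told apart. The deposited values are coarse: 13 of the 35 genes had at most 3 distinct values over 5 arrays, 37.1% against 38.4% of all genes, and the value 3.03 recurred in Gzmb, Gzmg and Klrb1c. Exact ties give such genes a spread of 0 or close to it.

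**Figure D1:**
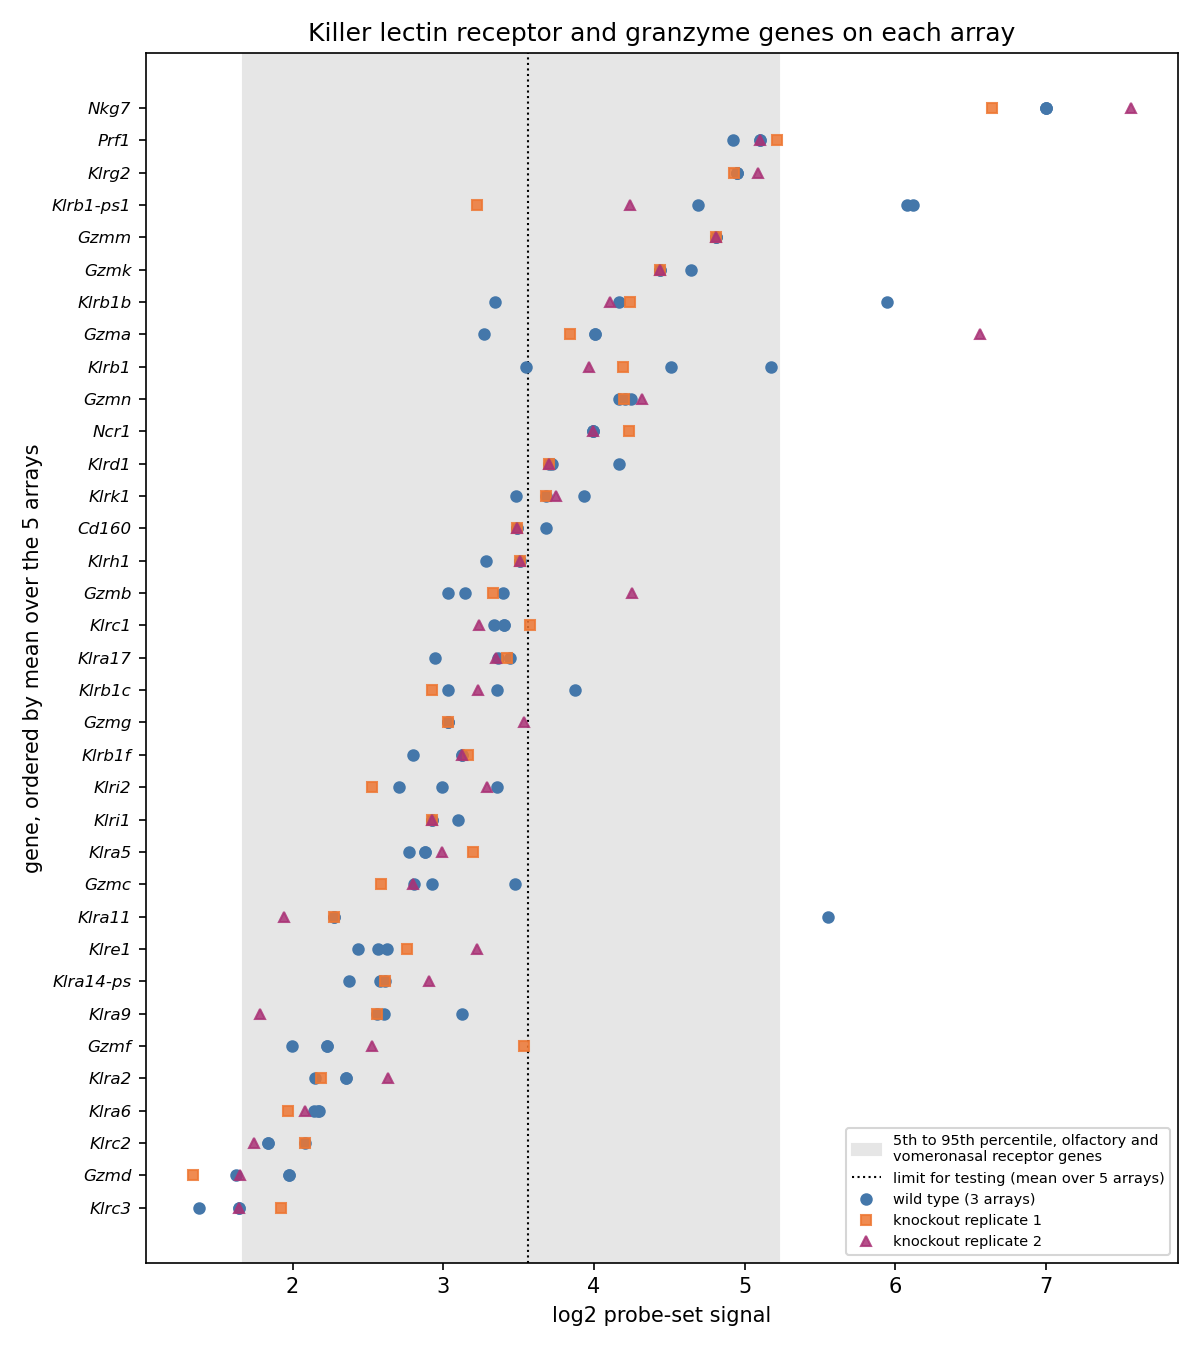
Log2 probe-set signal (x axis) of the 35 genes (y axis, ordered by mean only to ease reading) on 3 wild-type arrays (circles) and on each knockout array (square and triangle). The grey band spans the 5th to 95th percentile of olfactory and vomeronasal receptor genes and the dotted line marks the limit for testing at 3.56; Nkg7 lies right of the band on all 5 arrays and Gzma only on knockout replicate 2.

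Among the granule proteins, Nkg7, a membrane protein of cytotoxic granules, was the transcript with a signal clear of the reference range on every array. It read 7.003, 7.001 and 6.998 on the 3 wild-type arrays, 6.65 on knockout replicate 1 and 7.56 on knockout replicate 2. The knockout arrays lay on opposite sides of the wild-type values, so the groups overlapped. The difference of the group means was 0.10 log2 units (SE 0.30), and limma gave an adjusted p = 0.897. Taken alone against wild type, replicate 1 differed by -0.355 (limma adjusted p = 0.0375) and replicate 2 by 0.56 (limma adjusted p = 0.0183). Such fits with a single knockout array called 2.34% and 6.44% of all genes tested, respectively, and assume that the lone array varies like wild type, which for Nkg7 had an SD of 0.0027 (n = 3). Prf1, which encodes perforin, read 5.10, 4.92 and 5.10 in wild type and 5.21 and 5.10 in knockout. Its difference of 0.12 (SE 0.09) did not pass, with limma's adjusted p = 0.625.

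Gzma, which encodes the tryptase granzyme A, showed the widest upward difference of the 35 genes, and a single array carried it. It read 4.01, 4.01 and 3.27 in wild type, 3.84 on knockout replicate 1 and 6.56 on knockout replicate 2. The first knockout array lay within the wild-type values and the second lay 2.80 log2 units, or 6.97-fold, above their mean. Over both arrays the difference was 1.44 (SE 0.93, limma adjusted p = 0.623), without replicate 2 it was 0.079, and without replicate 1 it was 2.80 with limma's adjusted p = 0.103. Gzmb, which encodes granzyme B, a protease that cuts after aspartate and activates caspases, showed the same order at a dim level. It read 3.03, 3.40 and 3.15 in wild type, 3.33 on knockout replicate 1 and 4.26 on replicate 2, which was 2.09-fold above the wild-type mean. Its mean fell below the limit for testing, and it was singled out after its values were seen. Without replicate 2 its difference was 0.14 in place of 0.60.

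The remaining granzymes stayed below the reference 95th percentile on all arrays. Gzmm read 4.81 on all 5 arrays, and Gzmk, the neighbour of Gzma on the chromosome and also a tryptase gene, read 4.44 on 4 arrays and 4.64 on wild type replicate 2. Gzmn read 4.25, 4.17 and 4.21 in wild type and 4.20 and 4.32 in knockout. None of these 3 passed, with limma's adjusted p between 0.727 and 1. Gzmc, Gzmd, Gzmf and Gzmg, which sit in 1 cluster with Gzmb and Gzmn, were not tested. Gzmf read 2.23, 2.00 and 2.23 in wild type and 3.54 and 2.53 in knockout, with no overlap and a difference of 0.88. Its higher knockout array was replicate 1, without which the difference was 0.38. Gzmg read 3.03 on 4 arrays and 3.54 on knockout replicate 2, while Gzmc read 3.48, 2.92 and 2.81 in wild type and 2.58 and 2.80 in knockout, a difference of -0.38 that was -0.174 without wild type replicate 1. Gzmd read 1.97, 1.98 and 1.62 in wild type and 1.34 and 1.65 in knockout, a difference of -0.36 that was -0.204 without knockout replicate 1. Near-identical copies such as Gzmd to Gzmg may share probes, so their single values are uncertain.

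**Figure D2:**
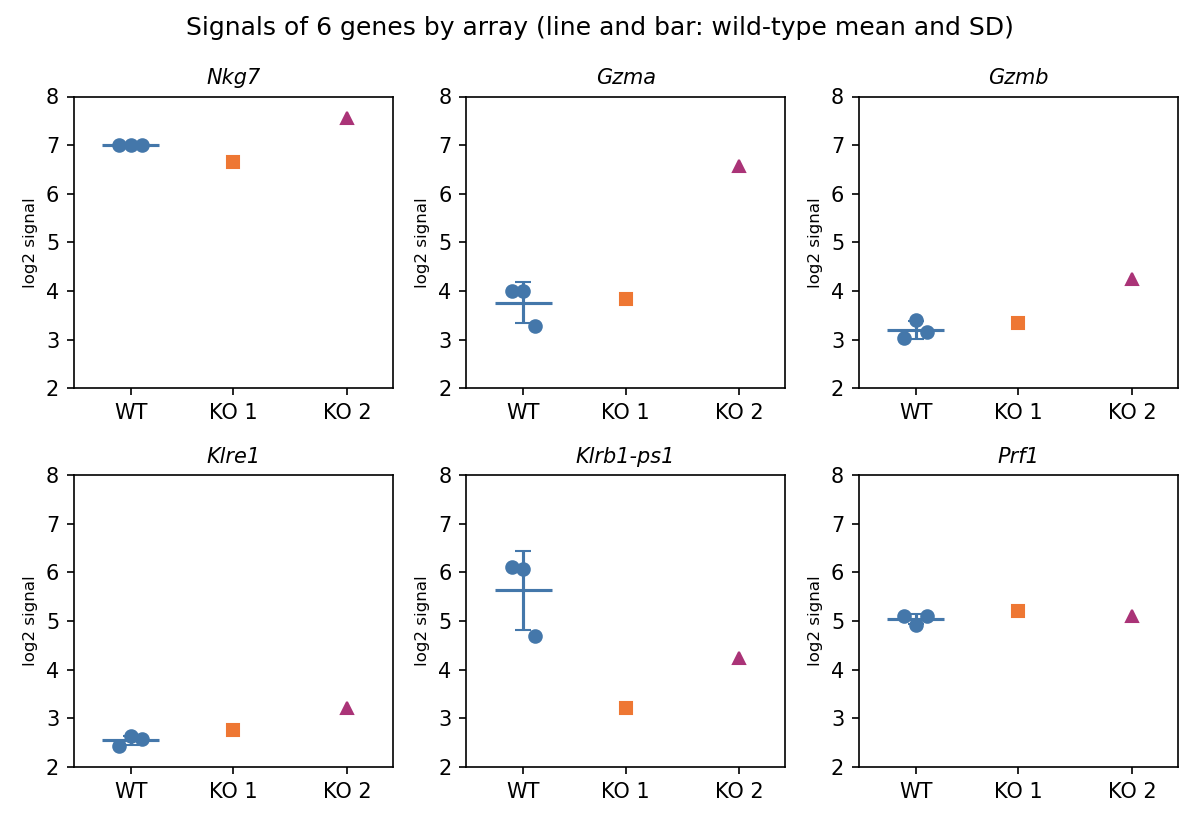
Log2 probe-set signal (y axis) of 6 genes on 3 wild-type arrays (circles, with their mean as a line and SD as a bar) and on knockout replicates 1 (square) and 2 (triangle). Nkg7, Gzma, Gzmb and Klre1 are highest on knockout replicate 2, Klrb1-ps1 is lower on both knockout arrays than on every wild-type array, and Prf1 stays between 4.92 and 5.21.

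The promoters of Nkg7, Gzma and Gzmb are shown because these are the granule genes with the widest upward values on knockout replicate 2. Each run holds the 250 bases before the RefSeq start site of assembly GRCm38.p6, read along the gene, at chr7:43436888-43437137 on the plus strand for Nkg7, chr13:113100982-113101231 on the minus strand for Gzma and chr14:56262335-56262584 on the minus strand for Gzmb. Capitals mark matches, on either strand, to 4 motifs of lymphocyte factors: GGTGTGA for T-box factors, TGTGGT for RUNX factors, AGATAA for GATA factors and TTCNNNGAA for STAT factors.
Nkg7: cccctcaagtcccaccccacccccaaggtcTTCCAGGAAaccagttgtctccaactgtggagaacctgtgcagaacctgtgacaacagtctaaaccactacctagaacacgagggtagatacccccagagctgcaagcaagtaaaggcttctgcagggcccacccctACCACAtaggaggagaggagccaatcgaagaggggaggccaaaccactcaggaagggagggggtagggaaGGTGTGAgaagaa
Gzma: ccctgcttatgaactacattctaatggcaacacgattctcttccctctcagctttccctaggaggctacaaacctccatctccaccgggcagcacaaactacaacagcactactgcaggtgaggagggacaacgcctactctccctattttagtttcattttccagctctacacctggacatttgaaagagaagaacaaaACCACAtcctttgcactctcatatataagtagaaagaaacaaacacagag
Gzmb: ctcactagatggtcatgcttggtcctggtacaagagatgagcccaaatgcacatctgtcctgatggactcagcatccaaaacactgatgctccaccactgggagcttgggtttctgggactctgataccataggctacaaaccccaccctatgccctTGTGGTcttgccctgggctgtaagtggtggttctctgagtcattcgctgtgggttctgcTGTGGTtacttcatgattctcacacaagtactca

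All 3 promoters hold the RUNX letters, which begin 83 bases before the start in Nkg7, 50 in Gzma, and 93 and 34 in Gzmb. Nkg7 also holds the T-box letters 13 bases and the STAT letters 220 bases before its start. The table held promoters for 30 of the 35 genes, in 36 windows since some genes have several start sites. The RUNX letters occurred in 20 of these 36 windows (55.6%), belonging to 17 genes, against 14.0% of all 32851 windows of the same length. Of the granzymes, Gzma, Gzmb, Gzmc, Gzmd, Gzmf, Gzmg and Gzmm held them, as did Prf1, Ncr1, Cd160, Klrb1c, Klrc1, Klrc2, Klrc3, Klre1 and Klrk1. Many of these genes are tandem copies with like promoters, so the windows are not independent. The T-box letters occurred in 11.1% of the windows against 3.33% of all, the GATA letters in 8.33% against 9.99% and the STAT letters in 11.1% against 7.02%. Matches of the T-box and RUNX letters can overlap, and no correction was made for base composition. A match describes letters and is no measurement of binding. The RUNX factor gene Runx3 read 6.16 to 6.26 in wild type and 6.84 and 6.26 in knockout, Tbx21, the gene for the T-box factor T-bet, read 4.67 to 4.90 and 5.24 and 4.90, and Eomes, for the T-box factor of NK cells, read 2.84 to 2.91 on all 5 arrays.

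**Figure D3:**
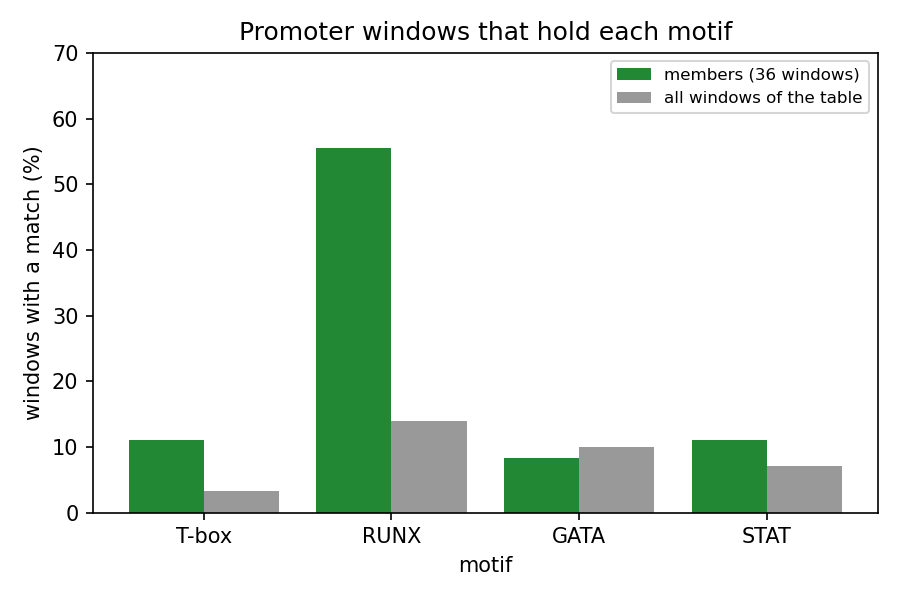
Share of 250-base promoter windows (y axis, percent) that hold each of 4 motifs (x axis), for the 36 windows of the killer lectin receptor and granzyme genes (green) and for all 32851 windows (grey). The bars for RUNX stand at 55.6% and 14.0% and are the farthest apart of the 4 pairs.

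The NKR-P1 receptors (Klrb1 genes), which recognise lectin-like Clr proteins on other cells, had the most variable wild-type signals of the receptor families. The median SD over the 3 wild-type arrays was 0.81 log2 units for their 5 genes and 0.14 for all genes, given as a description. Klrb1-ps1, a transcribed pseudogene of the family per RefSeq, read 6.12, 6.08 and 4.69 in wild type and 3.22 and 4.24 in knockout. Both knockout arrays lay below all 3 wild-type arrays. Its difference of -1.90 (SE 0.63) did not pass, with limma's adjusted p = 0.605 and an unadjusted p = 0.041. Without replicate 2 the difference was -2.41 and without replicate 1 it was -1.39. Whether the probes of Klrb1-ps1 also read transcripts of other Klrb1 genes could not be checked. Klrb1b, an inhibitory receptor for Clr-b, read 3.34, 5.94 and 4.17 in wild type and 4.24 and 4.10 in knockout, so that 1 wild-type array stood above the other 4. Leaving out that array turned its difference from -0.31 to 0.42. Klrb1 read 5.17, 4.51 and 3.55 in wild type and 4.19 and 3.97 in knockout, and its difference of -0.33 became 0.050 without wild type replicate 1. Limma's adjusted p was 0.891 for Klrb1b and 0.797 for Klrb1. Klrb1c, which encodes the NK cell antigen NK1.1, was below the limit for testing, with 3.03, 3.88 and 3.36 in wild type and 2.92 and 3.23 in knockout, and Klrb1f lay between 2.80 and 3.17.

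Receptors that define NK cells gave signals within the range of the reference genes. Ncr1, which encodes NKp46, read 3.994 to 3.996 on 4 arrays and 4.23 on knockout replicate 1. Klrk1, which encodes the activating receptor NKG2D, read 3.48, 3.68 and 3.93 in wild type and 3.68 and 3.75 in knockout. Klrd1, for CD94, the partner chain of the NKG2 receptors, read 3.72, 3.70 and 4.17 in wild type and 3.70 on both knockout arrays. Limma's adjusted p was 0.623, 0.990 and 0.716 for Ncr1, Klrk1 and Klrd1, all with overlapping or tied groups. Of the NKG2 chains, Klrc1, the inhibitory NKG2A, lay between 3.24 and 3.58, Klrc2 between 1.74 and 2.09 and Klrc3 between 1.38 and 1.92. Cd160, a receptor for HVEM, read 3.49 on 4 arrays and 3.68 on wild type replicate 2. On knockout replicate 2, where Gzma, Gzmb and Nkg7 were high, these receptor genes did not move in 1 direction. Ncr1, Klrk1, Klrd1, Klrc3 and Cd160 lay within the wild-type range there, and Klrc1 and Klrc2 below it. Klre1, another receptor gene, lay above it, at 3.22 against 2.43 to 2.63. For Ncr1, Klrd1 and Cd160 the value was an exact repeat of a wild-type value, which says little given the coarse values.

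Products of many Ly49 genes (Klra) read MHC class I. The 7 Ly49 genes with a probe set of their own symbol had mean signals from 2.11 to 3.30, and none was tested. Klra14-ps among them is a transcribed pseudogene per RefSeq. Ly49 genes without such a probe set are not covered, so these values do not describe the whole family. Klra11 read 2.27, 5.56 and 2.27 in wild type and 2.27 and 1.94 in knockout, so its difference of -1.26 came from wild type replicate 2, and without that array it was -0.165. Klra9 read 2.56, 2.60 and 3.13 against 2.56 and 1.79, with a difference of -0.59 that was -0.203 without knockout replicate 2. Klra5 was higher on both knockout arrays, at 3.20 and 2.99 against 2.77 to 2.88, and Klra6 lower, at 1.97 and 2.08 against 2.14 to 2.18. Klra2 read 2.35, 2.35 and 2.15 in wild type and 2.19 and 2.63 in knockout, and its difference of 0.13 became -0.0956 without knockout replicate 2. Klra14-ps differed by 0.24, or 0.093 without that array. The difference of Klra17, 0.14, became -0.016 without wild type replicate 3. Ly49 genes are near-identical copies and differ in number between mouse strains, so probes may be shared or lack a target. Of the other receptor genes, Klre1 read 2.43, 2.63 and 2.57 in wild type and 2.76 and 3.22 in knockout, without overlap, at a difference of 0.45 that was 0.215 without knockout replicate 2. Klri1, whose product pairs with that of Klre1, read 2.93 on 4 arrays and 3.10 on wild type replicate 1. Klri2 lay between 2.53 and 3.35 and Klrh1 between 3.29 and 3.51. Klrg2, the 1 gene of this group that was tested, read 4.95 on all 3 wild-type arrays and 4.93 and 5.09 in knockout (limma adjusted p = 0.728). It lies apart from the other 20 killer lectin receptor genes placed by RefSeq on chromosome 6, which form the NK gene complex.

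Between genotypes, none of the 13 genes tested passed an adjusted p of 0.05 in limma, and none of all 16635 genes did (0%). At an unadjusted p below 0.05 there was 1 of 13 (7.69%), Klrb1-ps1, against 7.64% of all genes tested. Groups did not overlap for 6 of the 35 genes (17.1%), against 16.6% of all 22180 genes. Of these, Klra5, Klre1 and Gzmf were higher in knockout (8.57%, against 11% of all genes) and Klrb1-ps1, Gzmc and Klra6 lower (8.57%, against 5.63%). These shares are near the background, as each direction rests on only 3 genes, and all but Klrb1-ps1 were too dim to be tested. The median difference was 0.026 log2 units over the 35 genes and 0.037 over all genes, with 19 genes above 0, 15 below and Gzmm at 0.

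Taken 1 array at a time, the counts outside the wild-type range were small and are given beside the shares of all genes. Knockout replicate 2 lay at least 0.5 log2 units above the wild-type mean and outside the wild-type range for 5 of the 35 genes, namely Gzma, Gzmb, Klre1, Nkg7 and Gzmg, or 14.3% against 9.59% of all genes. On knockout replicate 1 this held for 1 gene, Gzmf, or 2.86% against 8.09%. In the downward direction it held for Klrb1-ps1, Klra11 and Klra9 on replicate 2 (8.57% against 9.01%) and for Klrb1-ps1 and Gzmd on replicate 1 (5.71% against 5.41%). Klrb1-ps1 was the 1 gene past this limit on both arrays. With no minimum size, replicate 2 lay above the wild-type range for 11 genes (31.4%, against 31% of all genes) and replicate 1 for 8 (22.9%, against 28.4%). The 5 genes high on replicate 2 were grouped after their values were seen, on the array with the high Xist signal.

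**Figure D4:**
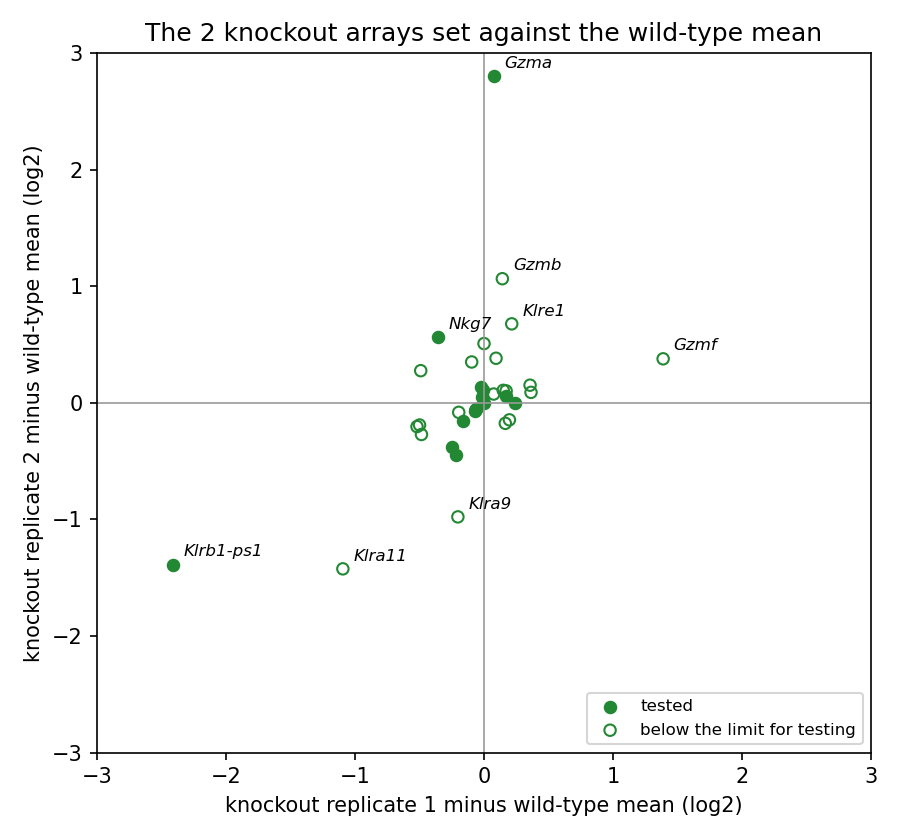
Difference of knockout replicate 1 (x axis) and knockout replicate 2 (y axis) from the wild-type mean, in log2 units, for the 35 genes (filled where tested). Gzma lies at 0.079 and 2.80 and Gzmf at 1.39 and 0.38, while Klrb1-ps1 is low on both axes.

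Partners of these genes gave a similar picture, and none of the 5 pathway lists held a gene that passed. The signalling adaptor gene Hcst (DAP10), the partner of NKG2D, had a high signal of 10.37 to 10.47 in wild type and 10.40 and 10.79 in knockout. That of Tyrobp (DAP12), the partner of activating Ly49 receptors, was 5.70 to 6.13 in wild type and 5.21 and 5.73 in knockout. Of 19 genes for adaptors and proximal signalling, 10 were above and 9 below 0 in difference, with a median of 0.12. The 3 with the smallest p were Ptpn6, the SHP-1 phosphatase that inhibitory receptors recruit (-0.86, SE 0.36), Inpp5d, the SHIP-1 phosphatase (-0.74, SE 0.44), and the adaptor gene Lcp2 (-0.22, SE 0.13). Single arrays weighed differently in them. Against the wild-type mean, knockout replicates 1 and 2 differed by -1.37 and -0.34 for Ptpn6, by -0.086 and -1.40 for Inpp5d and by -0.063 and -0.38 for Lcp2. Among ligand genes, 10 of 12 were below 0 and the median was -0.16, against 8701 of all 22180 genes and a median of 0.037. By mean, 7 of these 12 lay at or below the reference 95th percentile. H2-D1, Raet1d and Raet1e were also listed but were not found among the genes with their own symbol. H2-K1, a classical MHC class I chain, read 9.81, 9.83 and 9.84 in wild type and 9.27 and 9.57 in knockout, a difference of -0.41 (SE 0.10), lower on both arrays. Clec2d, which encodes Clr-b, differed by -0.42 (SE 0.18) and B2m, the light chain of MHC class I, by 0.16 (SE 0.06). By array, replicates 1 and 2 differed by -0.67 and -0.16 for Clec2d and by 0.098 and 0.22 for B2m. Limma's adjusted p was 0.528 for H2-K1 and 0.623 for Ptpn6, Inpp5d, Lcp2, Clec2d and B2m.

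Genes of granule assembly, release and granzyme control had mean signals above the reference 95th percentile for 16 of 19 list members. Srgn, the proteoglycan core of the granules, read 10.21 to 10.32 in wild type and 10.35 and 10.51 in knockout, and Ctsc, the protease that activates granzymes, 7.01 to 7.26 and 7.02 and 6.82. In this list 9 genes were above and 9 below 0 in difference, with a median of 0. Stxbp2, needed for granule fusion, read 7.58, 6.94 and 7.20 against 6.66 and 6.61, and its difference was -0.60 (SE 0.22). Ap3b1, of the AP-3 sorting complex, differed by -0.49 (SE 0.16) and Ctsl, a lysosomal cathepsin gene, by 0.22 (SE 0.10). By array, replicates 1 and 2 differed by -0.32 and -0.66 for Ap3b1 and by 0.36 and 0.089 for Ctsl. Limma's adjusted p was 0.602 for Ap3b1 and 0.623 for Stxbp2 and Ctsl. Of the factors and cytokine receptors of cytotoxic lymphocytes, 10 of 19 were above 0 and the median was 0.022. Il2rb, the receptor chain shared by IL-2 and IL-15, differed by 0.69 (SE 0.31), Ikzf3 by 0.51 (SE 0.24) and Il12rb1 by -0.38 (SE 0.20), each with limma's adjusted p = 0.623. All 3 differed more on replicate 1, by 0.99 against 0.40 on replicate 2 for Il2rb, by 0.82 against 0.21 for Ikzf3 and by -0.65 against -0.11 for Il12rb1. Of 11 other cytotoxic and type 1 products, 5 were above and 5 below 0, with a median of 0. The lowest p belonged to the death ligand gene Tnfsf10 and to Tnf and Ltb, which had differences of -1.76, -2.18 and -0.39 and limma's adjusted p of 0.443, 0.514 and 0.598.

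Markers of other cells that can carry these genes were read on knockout replicate 2, where Gzma was high. Those of NK cells and T cells lay on both sides of the wild-type range there. Markers of mast cells and basophils, and those of lung epithelium, lay mostly above it. Of 17 NK cell and ILC1 markers outside the set, 10 lay at or below the reference 95th percentile, among them Eomes, Itga2 and Ifng, and Ifng read 3.26 on all arrays. On replicate 2, 5 of the 17 lay above and 4 below the wild-type range, against 6878 (31%) and 4546 of all 22180 genes. Cd244a, an NK cell receptor gene of that list, read 4.13 on 4 arrays and 4.85 on replicate 2. Their summed linear signal was 2110 to 2438 in wild type, 2412 on knockout replicate 1 and 2264 on replicate 2. Such sums follow the brightest markers, here Cxcr6 at 10.06 to 10.32 log2 units, and say little of the dim ones. Of 12 T cell markers, 8 lay at or below the reference 95th percentile, and 8 had differences above 0, as had 12673 of all 22180 genes. On replicate 2, 4 of the 12 lay above the wild-type range (Cd8a, Cd28, Cd6 and Themis) and 3 below it (Lat, Cd3e and Cd3d). Cd8a, which marks cytotoxic T cells, read 3.41 to 4.05 in wild type and 4.12 and 4.16 in knockout, and Cd28, a costimulatory receptor gene, was also higher on both knockout arrays, by 0.78 on average. Over both knockout arrays, Lat, Cd3e and Cd3g differed by -0.35, -0.47 and -0.24, and on replicate 2 alone by -0.44, -0.24 and -0.037. The sum over the T cell list, in which Lat and Cd3g are the brightest, was 1966 to 2175 in wild type and 1772 and 1801 in knockout. For mast cells and basophils, which also make granzymes, 8 of 10 markers were at or below the reference 95th percentile. On replicate 2, 6 of the 10 lay above the wild-type range (Cpa3, Tpsab1, Cma1, Fcer1a, Mcpt4 and Tpsb2) and 1 below it, where 31% of all genes lay above. Cpa3, a carboxypeptidase gene of mast cells, read 6.43 to 6.86 in wild type and 6.86 and 7.40 in knockout, while the other 5 were dim, and Fcer1a and Cma1 were also above the wild-type range on replicate 1. The mast cell sum was 866 to 1077 in wild type and 1096 and 1030 in knockout, with Kit, at 9.31 to 9.77, as its brightest gene. For B cells all 7 markers were at or below it and sums were 113 to 122 against 127 and 123. All 10 macrophage and dendritic cell markers were also at or below it, with sums of 137 to 201 against 157 and 157. Lung epithelium markers, 10 of 13 of which lay at or below it by mean, summed to 264 to 297 in wild type, 1171 on knockout replicate 1 and 363 on replicate 2. Such means hide single arrays. On replicate 1, Scgb1a1 read 8.81, against 3.62 to 5.01 in wild type and 5.93 on replicate 2. Bpifa1 read 8.52 there against 2.85 to 3.22 on the other arrays, and Scgb3a2 6.21 against 2.07 to 2.20. Of the 13 markers, 7 lay above and 1 below the wild-type range on replicate 1, and 8 above and 2 below it on replicate 2. Of all 22180 genes, 28.4% lay above it on replicate 1 and 31% on replicate 2, and 3722 and 4546 lay below it. The part of these cells in the values of the killer lectin receptor and granzyme genes was not tested.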

How the data were processed

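Trizol-extracted total RNA of lung ILC2s carried a biotin label, per the labels' protocols. The authors deposited log2 probe-set signals, and the submitters' processing notes name RMA and Affymetrix Expression Console. The sources used here give no versions, settings or genome build. RMA usually equalises the arrays, which hides a change common to all transcripts.

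The platform annotation gives 1 symbol to 23521 of 41345 probe sets, several to 1814 and none to 16010, which were left unnamed. The brightest probe set by mean stood for each of 22180 genes. The dimmest 25% of genes were dropped and 16635 were tested. Knockout was set against wild type in limma 3.58.1 under R 4.3.3 (lmFit, eBayes, Benjamini-Hochberg over all genes tested, threshold 0.05), without a block. The procedure was tried on simulated data with normal noise. Those data lack the exact ties of the deposited values, so the trial does not show what can be detected here. No exact permutation p is given, since 3 against 2 arrays allow none under 0.1 (two-sided). The members and lists were chosen with earlier results of these data known. Array values are given for the 10 members with the highest mean, for Prf1, Nkg7, Ncr1, Cd160 and Klrb1c, for members without overlap and a difference of at least 0.5, and, chosen after seeing the values, for others. From each pathway list the 3 tested genes with the smallest p are named, and Hcst, Tyrobp, Srgn, Ctsc, Runx3, Tbx21, Eomes, Cd244a, Cpa3 and the other named markers were added afterwards. The reference of olfactory and vomeronasal receptor genes was also chosen after seeing the data. Of the 35 members, 34 were found by identifier in the RefSeq table of assembly GRCm38.p6, which gave gene order and promoters. Alternatives covered the filter, probe sets, normalization, array weights, variance model, a block for the replicate number, each array left out and, added after seeing the data, only genes with at least 4 distinct values.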

Additional observations from a re-analysis of the deposited data

How the results depend on the processing

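No gene passed in limma under the other filters on dim genes, averaged probe sets, quantile normalization, median centring, another variance model, array weights, an adjusted p of 0.1 or, added after seeing the data, the limit to genes with at least 4 distinct values. At an unadjusted p below 0.05 the main count was 1271 of all genes, 1 member and 12 genes of the lists. With the replicate number as a block, 0 of all genes, 0 members and 0 list genes passed. The labels do not say whether arrays with the same replicate number share anything else, and no pairing was drawn from the numbers. Deviations of same-numbered arrays from their group means correlated at -0.045 and 0.12. These values cannot decide it, since the deviations of the knockout arrays from their own mean mirror each other. Leaving out 1 array in turn gave 0 to 1072 genes, 0 to 1 members and 0 to 9 list genes. The counts above 0 came from leaving out knockout replicate 1 (1072, 1 and 9) and knockout replicate 2 (389, 1 and 6), and Nkg7 was the member both times, with opposite signs. Among the 13 members tested, the direction also turned with 1 array left out where differences were small or uneven, which ranged from -0.355 to 0.56 for Nkg7, -0.88 to 0.42 for Klrb1b, -0.76 to 0.050 for Klrb1, -0.093 to 0.13 for Klrk1, -0.024 to 0.14 for Klrg2 and -0.0066 to 0.11 for Gzmn. Among members not tested it turned for Klri2 (-0.491 to 0.275), Klra2 (-0.0956 to 0.35), Klrc2 (-0.176 to 0.165), Klrc1 (-0.146 to 0.197) and Klra17 (-0.016 to 0.234). The difference of Gzma kept its sign, from 0.079 to 2.80, and that of Klrb1-ps1 from -2.41 to -1.39. With 22 of 35 members below the limit for testing, signal over background limits what can be measured for most of them.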
